A study of Mus musculus with 6 samples.

Results

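The cytosolic ribosomal protein (RP) genes were examined in LT-CML stem cells, the long-term stem cells of chronic myelogenous leukaemia, that carried or lacked the lysophospholipase D gene Gdpd3. Members were the protein-coding rows of the expression table with an Rpl or Rps name followed by a number, together with Rpsa, Rplp0, Rplp1 and Rplp2, a rule on names that uses no measured value, although the group was taken up with earlier results of these data known. This gave 84 of 36976 genes (22380 of them protein-coding): 42 large-subunit genes, 31 small-subunit genes, the 3 genes of the P stalk, and 8 paralogs with an l in their name (Rps4l is listed under its older symbol Rps4y2). The first 3 groups, 76 genes, are called core genes below. The members lay on 19 chromosomes, with 14 of them on chromosome 7 and 4 on the X chromosome.

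The cells were CD150+CD48-CD135- Lineage-Sca-1+cKit+ cells sorted from the bone marrow of tet-CML-affected mice, and 6 SMART-Seq v4 libraries were compared, 3 of Gdpd3+/+ (replicates 1, 2 and 3) and 3 of Gdpd3-/- (replicates 5, 6 and 7). All mice, of both genotypes, carried SCL-tTA and TRE-BCR-ABL1 on a C57BL/6 background, so BCR-ABL1 was switched on by doxycycline withdrawal in cells in which SCL control elements drive tTA. No leukaemia-free group was included. Gdpd3-/- mice carried a small CRISPR/Cas9 deletion next to the start codon, and cells were taken 5 weeks after induction. The Gdpd3+/+ group pooled 22 males and 12 females and the Gdpd3-/- group 5 males and 5 females, aged 10 to 12 weeks, so sex ratio and pool size cannot be told apart from genotype. P-values measure the spread between these libraries.

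Values are FPKM, fragments per kilobase of gene length, scaled to the fragments assigned to genes in each library. The depth recovered from the table was 21334716 to 62762437 fragments, and the median Gdpd3+/+ library was 2.44 times as deep as the median Gdpd3-/- library. Gdpd3 itself stood at 7.3, 3.29 and 2.95 FPKM in Gdpd3+/+ and at 0.11, 0.0129 and 0.681 in Gdpd3-/-. Of 10 stem cell markers, Kit and Ly6a were above 100 FPKM in every library, and 1 marker, Cd34, was called higher in Gdpd3-/- and 0 lower. Slamf1, which encodes the CD150 used in the sort, had 11.7, 10.1 and 10.3 FPKM in Gdpd3+/+ and 5.41, 13.2 and 7.71 in Gdpd3-/-, overlapping, and Tek, a receptor of stem cells, 12.8, 11.4 and 11.6 against 7.21, 9.59 and 8.54, with every Gdpd3-/- library lower (log2 fold change -0.50, SE 0.151, adjusted p = 0.123 by limma). Flt3, which encodes the CD135 that the sort excluded, had 11.01, 10.6 and 9.8 FPKM in Gdpd3+/+ and 46.5, 37.8 and 36.8 in Gdpd3-/- (log2 fold change 1.93, SE 0.13, adjusted p = 0.00562 by limma). Cd48, the other excluded marker, had 39.8, 41.2 and 44.8 against 51.6, 54.0 and 92.2, with every Gdpd3-/- library higher (log2 fold change 0.60, SE 0.226, adjusted p = 0.188 by limma). The part of these markers in the results below was not tested. Gdpd3-/- replicates 5 and 6 stood apart by skeletal muscle transcripts, whose values are given beside the results they touch. Because these are bulk libraries, a lower level cannot be separated into fewer cells of a type and less RNA per cell.

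Each cytosolic ribosome holds a single copy of nearly every RP, so the genes of both subunits are expressed together at high and matched levels. The P stalk, made by Rplp0, Rplp1 and Rplp2, recruits elongation factors, and the products of Rplp1 and Rplp2 are the exception present in several copies. RP mRNAs of mammals typically begin with a C and a run of pyrimidines, the 5′ terminal oligopyrimidine (TOP) tract, through which mTORC1 controls their translation by way of LARP1. Loss of a single copy of several RP genes causes Diamond-Blackfan anaemia, and loss of RPS14 underlies the anaemia of the 5q- syndrome, so blood formation is known to be sensitive to RP dose. The comparison asks whether RP mRNAs differed in LT-CML stem cells that lacked Gdpd3. The study used phosphorylated S6, the product of Rps6, as a readout of mTORC1 signalling.

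The sequence around the start site was available from RefSeq (GRCm38.p6) for 63 members, 56 core genes and 7 paralogs. It was searched on the transcript strand for an unbroken run of C and T of at least 5 bases that reached within 5 bases of the listed start, keeping for each gene the start with the longest run. Such a run was present in 33 of 56 core genes (58.9%), 3 of 7 paralogs (42.9%) and 9916 of 27025 genes overall (36.7%). Runs of at least 8 bases were found in 22 core genes (39.3%), against 11.4% of all genes. Counted by start rather than by gene, the share with at least 5 bases was 53.0% of 66 core starts and 32.9% of all 32851 starts. The windows below run from 10 bases before the listed start to the 20th base of the transcript (30 bases, 5′ to 3′), with the run in capitals. They show Rps6, called members with a run (Rpl35a, Rpl27a) and without one (Rpl5, Rps13), the core gene with the smallest fold change (Rpl4), a paralog with a run (Rpl22l1) and 3 paralogs without (Rpl36al, Rpl7l1, Rpl3l).
Rps6: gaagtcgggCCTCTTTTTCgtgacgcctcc
Rpl35a: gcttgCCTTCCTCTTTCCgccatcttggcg
Rpl27a: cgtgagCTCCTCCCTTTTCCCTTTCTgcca
Rpl5: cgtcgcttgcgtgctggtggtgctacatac
Rps13: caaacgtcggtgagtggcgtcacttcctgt
Rpl4: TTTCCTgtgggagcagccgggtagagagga
Rpl22l1: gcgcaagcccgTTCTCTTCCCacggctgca
Rpl36al: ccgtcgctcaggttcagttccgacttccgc
Rpl7l1: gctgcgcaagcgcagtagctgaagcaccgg
Rpl3l: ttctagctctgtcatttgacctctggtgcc

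In GRCm38.p6 these windows lie at chr4:86857348-86857377 (- strand) for Rps6, chr16:33056472-33056501 (+ strand) for Rpl35a, chr7:109519185-109519214 (+ strand) for Rpl27a, chr5:107900518-107900547 (+ strand) for Rpl5 and chr7:116334171-116334200 (- strand) for Rps13. Those of the others are chr9:64173377-64173406 (+ strand) for Rpl4, chr3:28805498-28805527 (+ strand) for Rpl22l1, chr12:69184048-69184077 (- strand) for Rpl36al, chr17:46782637-46782666 (- strand) for Rpl7l1 and chr17:24727816-24727845 (+ strand) for Rpl3l. The run of Rpl4 is 14 bases long and starts 18 bases before the listed start, so only its last part is in the window. A listed start can be some bases away from the start used in these cells, and a window without a run says only that these letters are not at that position.

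In Gdpd3+/+ LT-CML stem cells the RP genes were among the most abundant messages. They held 18 of the 100 protein-coding genes with the highest mean FPKM, and 67 of the 84 members had a mean of at least 100 FPKM. The highest was Rpl32, a large-subunit protein gene, with 1096, 1233 and 1241 FPKM in the Gdpd3+/+ libraries and 1698, 1795 and 1613 in the Gdpd3-/- libraries (values are always given in the order of the replicates). It was followed by Rps27 with 1033, 1115 and 1161 FPKM in Gdpd3+/+ and 1601, 1711 and 1506 in Gdpd3-/-. Rpl37a, also among the 5 highest, had 745, 845 and 900.1 against 1090.5, 1160.4 and 1013. In each of these genes the Gdpd3-/- libraries all lay above the Gdpd3+/+ libraries. The Gdpd3+/+ ranges of Rpl32 and Rps27 overlapped.

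The core genes spanned 27.7 FPKM (Rps15a, Gdpd3+/+ mean) to 1190 FPKM (Rpl32), with a median of 153.7 for the 42 large-subunit genes and 311.6 for the 31 small-subunit genes. This order has to be read with the gene lengths, since the lengths behind the FPKM values ran from 345 to 6262 bases, far beyond most RP coding sequences, because they join the exons of all annotated transcripts. Across the 76 core genes Gdpd3+/+ FPKM fell with that length (Pearson's r = -0.75 on log2 values, Spearman's rho = -0.739; the genes share the same libraries and length enters FPKM, so this is a description). The same length divides both genotypes, and log2 fold change and length had r = 0.0152 across the same 76 genes. The plot of levels by library shows the members named in the text.

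**Figure D1:**
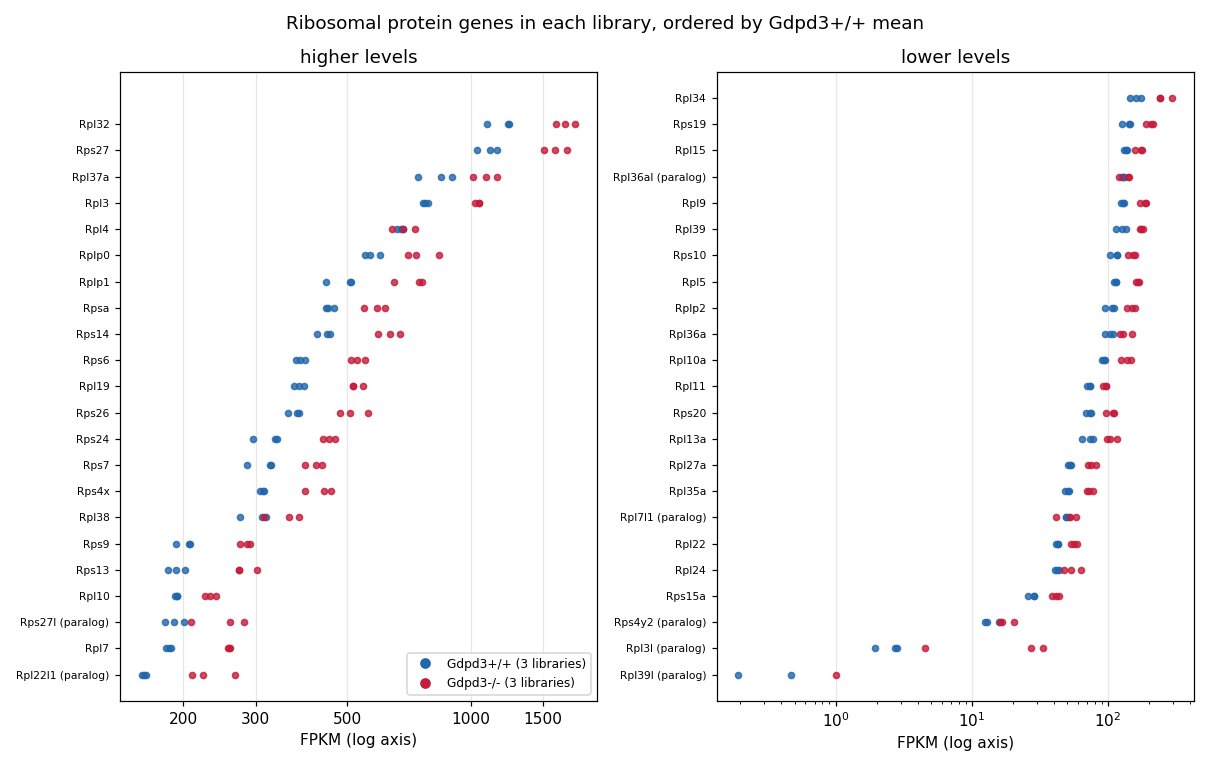
FPKM (log axis) of the 45 ribosomal protein genes that are named in the text and have reads, in each of the 3 Gdpd3+/+ (blue) and 3 Gdpd3-/- (red) libraries, 1 point a library, ordered by Gdpd3+/+ mean with the higher levels on the left. Rpl10l, at 0 in all libraries, and the 3 libraries of Rpl39l at 0 are not drawn. The red points lie to the right of the blue ones for 40 of the 45 genes, and they do not for Rpl4, Rpl38, Rpl7l1, Rpl36al and Rpl39l.

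As a group the RP genes took a larger part of the Gdpd3-/- libraries. Their share of all assigned fragments was 2.81%, 3.03% and 2.99% in Gdpd3+/+ and 3.95%, 4.16% and 3.85% in Gdpd3-/-, or 2.95% ± 0.117 against 3.99% ± 0.158 (SD, n = 3 each), a ratio of 1.35. All Gdpd3-/- libraries lay above all Gdpd3+/+ libraries (p = 0.1 by a two-sided exact permutation test, which cannot go lower with 3 libraries a group). The summed FPKM of the large-subunit genes with the P stalk was 12267 ± 546 in Gdpd3+/+ and 16637 ± 774 in Gdpd3-/-, and that of the small-subunit genes 11155 ± 524 and 15209 ± 646, a ratio of genotypes of 1.36 for each. The ratio of both sums was 1.10, 1.10 and 1.09 in Gdpd3+/+ and 1.09, 1.10 and 1.09 in Gdpd3-/-, so the groups overlapped (difference -0.00607; exact permutation test, p = 0.3). The median log2 FPKM of large-subunit minus small-subunit genes, in contrast, differed by 0.07 between the genotypes without overlap (exact permutation test, p = 0.1).

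Other groups of transcripts moved along with this share, and their part in it was not tested. Immunoglobulin genes took 13.0%, 12.8% and 13.9% of the fragments in Gdpd3+/+ and 6.08%, 3.97% and 6.79% in Gdpd3-/-. The 10 granulocyte and neutrophil markers, among them S100a8, Ngp and Mpo, took 2.70% to 2.82% in Gdpd3+/+ and 0.873% to 1.08% in Gdpd3-/-, and 5 of them were called lower. The 22 skeletal muscle markers took 0.219%, 0.153% and 0.146% in Gdpd3+/+ and 1.91%, 2.72% and 0.358% in Gdpd3-/-, and transcripts of the mitochondrial genome 1.9%, 1.69% and 1.75% against 2.79%, 3.0% and 1.98%. B and plasma cell markers took 7.99% to 8.66% in Gdpd3+/+ and 2.32% to 4.32% in Gdpd3-/-, with 1 of 9 called lower. Over all genes tested 0.616% were called lower. These markers include Ighm, Igkc and Igj, which the immunoglobulin share also counts, so the 2 shares are not separate. In 4 of the 9 all Gdpd3-/- libraries lay below, and in 1, Cd79b, all lay above (39.5, 39.9 and 39.8 FPKM against 50.2, 58.7 and 50.4). Erythroid markers ranged from 0.229% to 0.371% in Gdpd3+/+ and from 0.144% to 0.364% in Gdpd3-/-. T cell markers stayed at or below 0.00106% and testis markers at or below 0.00115% of fragments in every library. With immunoglobulin and skeletal muscle genes left out of the total, the RP share was 3.24%, 3.48% and 3.48% in Gdpd3+/+ and 4.3%, 4.46% and 4.14% in Gdpd3-/-, a ratio of 1.26 with the groups still apart, and among protein-coding rows alone it was 3.31%, 3.57% and 3.57% against 4.36%, 4.49% and 4.26%. Gdpd3-/- replicate 7, the library with the lowest muscle level of its group, had 3.85% on RP genes, above the 3.03% of the highest Gdpd3+/+ library.

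**Figure D2:**
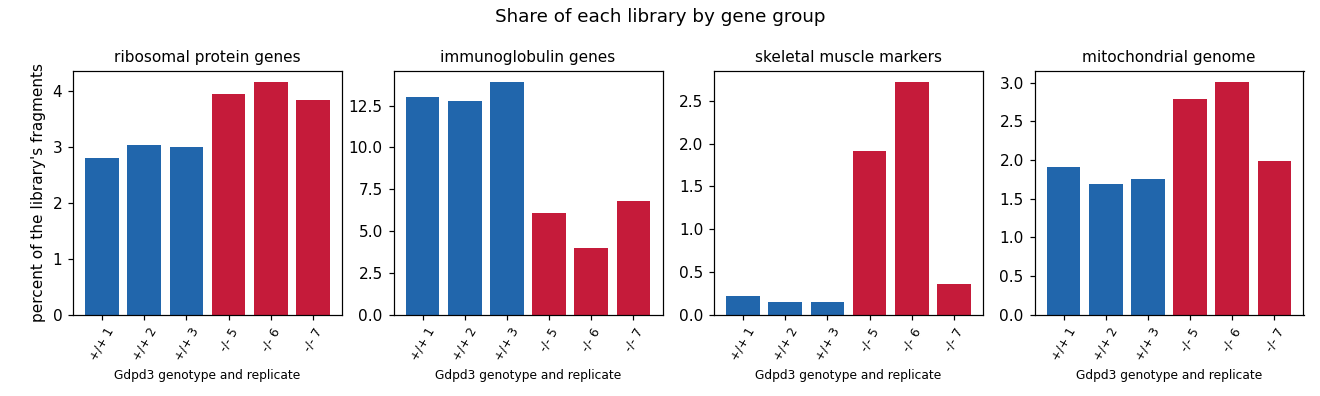
Percent of assigned fragments on ribosomal protein genes, immunoglobulin genes, 22 skeletal muscle markers and the mitochondrial genome in each library, 1 bar a library, with Gdpd3+/+ in blue and Gdpd3-/- in red. The ribosomal protein share is 2.81% to 3.03% in Gdpd3+/+ and 3.85% to 4.16% in Gdpd3-/-, while the immunoglobulin share lies between 12.8% and 13.9% in Gdpd3+/+ and between 3.97% and 6.79% in Gdpd3-/-.

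Gene by gene, 10 of the 83 members tested were called higher in Gdpd3-/- LT-CML stem cells, and the fold changes of the core genes lay close together. The ratio of means was 1.21 for Rpl10 and 1.62 for Rpl34, and 74 of the 76 core genes lay from the first to the second, with Rpl4 and Rpl38 below them. Limma's moderated test on log2(FPKM + 0.1), adjusted by Benjamini-Hochberg over 24689 genes, called 10 of the 83 members that passed the filter on low values higher and 0 lower. Over all genes tested 1.09% were called higher and 0.616% lower. The 10 were Rpl5, Rpl7, Rpl35a, Rpl9, Rps13, Rpl27a, Rps20, Rps9, Rpl34 and Rpl10a, with adjusted p between 0.0335 and 0.0491, and the adjusted p of the other core genes ranged up to 0.911. The unadjusted p was under 0.05 for 77 of the 83, all of them higher in Gdpd3-/-, against 16.5% of all genes being higher at that level. In 78 of the 83 every Gdpd3-/- library lay above every Gdpd3+/+ library, and in 0 below, against 23.5% and 8.27% of all genes tested. Among the 716 other genes with a mean of at least 100 FPKM, 48.3% had all Gdpd3-/- libraries above.

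The median log2 fold change of the members was 0.45, and that of all genes tested was 0.24, so the members lay 0.21 above the median gene. Scaling the libraries by the trimmed mean of M-values (TMM), which moves the median of all genes to 0.05, left the RP median at 0.24, with 79 of 83 members above 0 and 0 called higher, where 0.48% of all genes were called higher and 0.964% lower. Under each of the scalings tried the RP median stayed above that of all genes, by 0.19 with TMM, 0.19 with median-of-ratios scaling, 0.28 with quantile normalization and 0.23 with equal sums of FPKM. The number called did not hold. It was 0 when Gdpd3+/+ replicate 1, 2 or 3 was left out in turn, where 0%, 0% and 0.0322% of all genes were called higher. It was also 0 without Gdpd3-/- replicate 5 (0.354% of all genes) and 1 without Gdpd3-/- replicate 6 (1.19%). Without Gdpd3-/- replicate 7 it was 59, where 9.83% of all genes were called higher. It was 67 of 82 when only genes with a mean of at least 10 FPKM were tested, where 14.0% of all genes were called higher and 4.11% lower. The 10 called genes are therefore those just inside a threshold, and the fold changes of Rps15a (0.57, adjusted p = 0.0509) and Rps19 (0.57, adjusted p = 0.0517) just outside it by limma were as large. With Gdpd3-/- replicates 5 and 6 both left out, the RP median was 0.41. That fit has 1 Gdpd3-/- library, which is assumed to vary like the Gdpd3+/+ libraries, and it called 12 members and 8.42% of all genes higher.

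**Figure D3:**
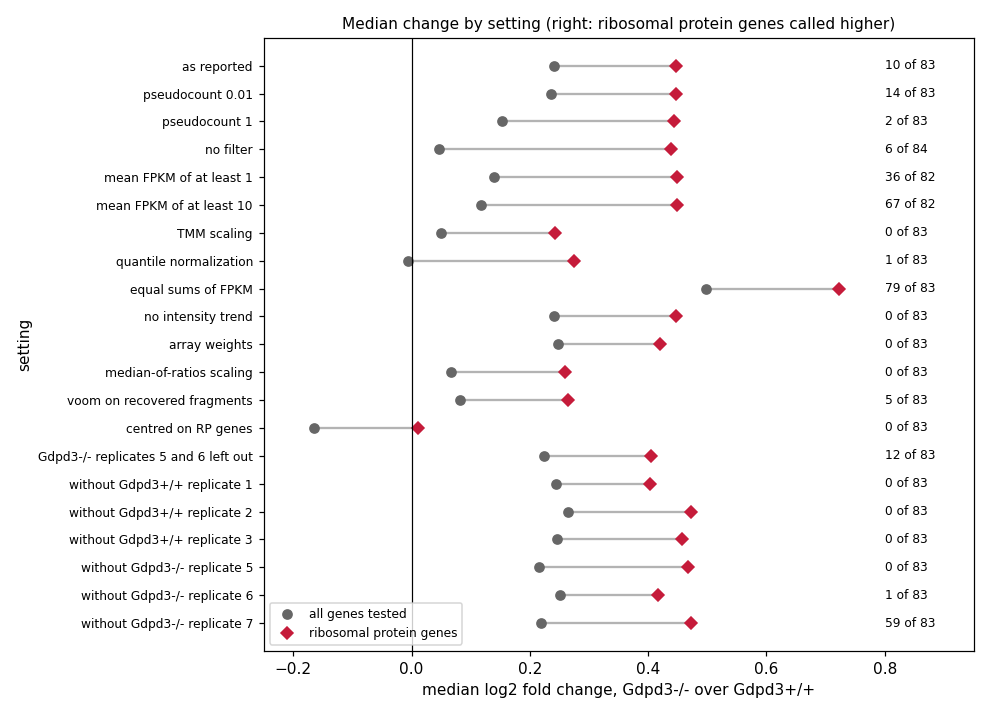
Median log2 fold change (Gdpd3-/- over Gdpd3+/+) of all genes tested (grey circles) and of ribosomal protein genes (red diamonds) as reported and under 20 other settings, with the number of ribosomal protein genes called higher at the right. The diamond lies to the right of the circle in every line, while the number called runs from 0 to 79.

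**Figure D4:**
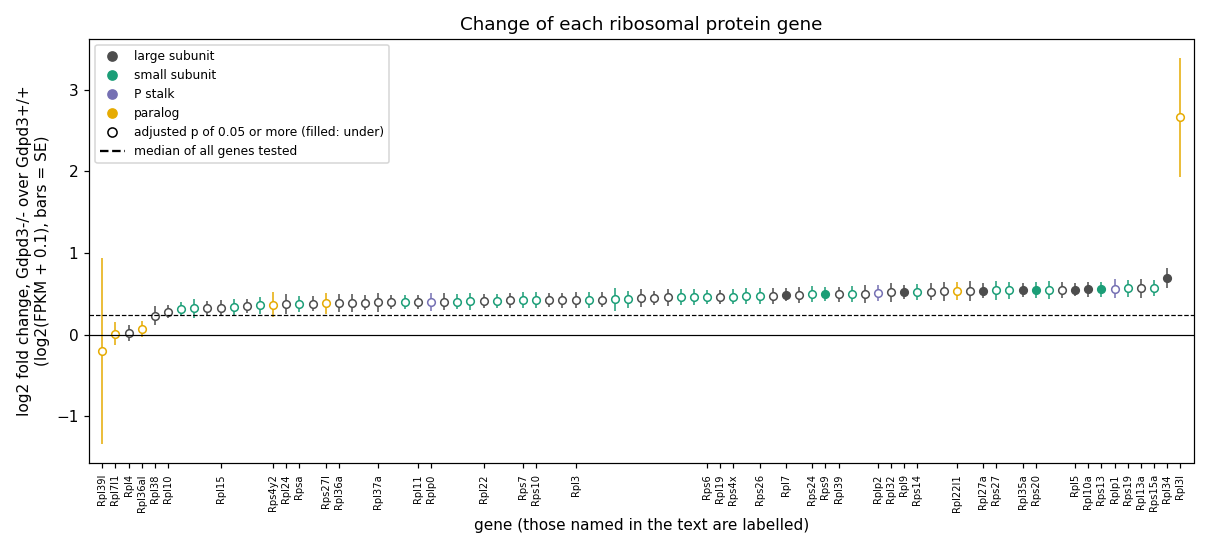
Log2 fold change (Gdpd3-/- over Gdpd3+/+, on log2(FPKM + 0.1)) of the 83 members tested, in rising order, with bars of 1 SE from limma on 3 libraries a group and colours for the group of genes, with names for those in the text. Filled points have an adjusted p under 0.05, the dashed line is the median of all genes tested at 0.24, and 74 of the 76 core genes lie between 0.28 and 0.69.

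Among large-subunit genes, Rpl5 had the smallest p. Rpl5 and Rpl11 encode the proteins that form the 5S ribonucleoprotein and bind MDM2 when ribosome assembly fails. Rpl5 (ENSMUSG00000058558.6, chr5:108329521-108338024, + strand, mm9) had 110.4, 113 and 113 FPKM in Gdpd3+/+ and 161, 168 and 165 in Gdpd3-/- (log2 fold change 0.55, SE 0.0786, adjusted p = 0.0335 by limma). The groups were far apart and each was tight. Of its 3920 exon bases 953 also belong to Fam69a, which runs in the other direction, at a mean of 19.6 FPKM, and whether counting used strand is not given in the sources used here. Rpl11 had 69.5, 73.4 and 74.2 FPKM in Gdpd3+/+ and 96.8, 97.0 and 92.2 in Gdpd3-/- (log2 fold change 0.40, SE 0.0825, adjusted p = 0.0675 by limma), also without overlap.

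Rpl34 had the largest fold change of the core genes, but the 1 row named as its pseudogene went the other way. That copy had a mean of 80.9 FPKM in Gdpd3+/+ and 21.7 in Gdpd3-/-. How fragments were divided between Rpl34 and the copy was not tested. Rpl34 (ENSMUSG00000062006.6, chr3:130429749-130433316, - strand, mm9) had 146, 161 and 173 FPKM in Gdpd3+/+ and 241, 294 and 242 in Gdpd3-/- (log2 fold change 0.69, SE 0.12, adjusted p = 0.0491 by limma), and its part of the summed core FPKM went from 0.658%, 0.667% and 0.724% to 0.762%, 0.881% and 0.793%. Rpl7, of the large subunit, stood at 182, 184 and 187 FPKM in Gdpd3+/+ and 259, 257 and 257 in Gdpd3-/- (log2 fold change 0.49, SE 0.0787, adjusted p = 0.0454 by limma). Rpl35a, in which loss-of-function variants cause Diamond-Blackfan anaemia, had 47.9, 50.9 and 52.0 FPKM in Gdpd3+/+ and 72.5, 77.2 and 70.4 in Gdpd3-/-. Its libraries did not overlap (log2 fold change 0.54, SE 0.0886, adjusted p = 0.0457 by limma). Rpl9, Rpl27a and Rpl10a had log2 fold changes of 0.52, 0.53 and 0.55, and Rpl13a, not called, 0.57 (adjusted p = 0.0651 by limma).

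By the SD of the log2 fold change the small-subunit genes formed the most even group. It was 0.073, against 0.084 for the 3 P stalk genes and 0.109 for the large-subunit genes with Rpl4. Over all core genes without Rpl4 the SD was 0.082. All 31 small-subunit genes had a log2 fold change between 0.31 and 0.57 and every Gdpd3-/- library above every Gdpd3+/+ library, and 3 were called higher. Over all genes tested 23.5% had every Gdpd3-/- library above, and 1.09% were called higher. Rps13 had 183, 202 and 192 FPKM in Gdpd3+/+ and 274, 301 and 272 in Gdpd3-/- (log2 fold change 0.55, SE 0.0921, adjusted p = 0.047 by limma). Rps20 had 68.5, 74.3 and 73.5 FPKM against 110.4, 109 and 97.0, and Rps9 192, 206 and 207 against 285, 274 and 290.2, again without overlap, with log2 fold changes of 0.55 and 0.49. Rps6 (ENSMUSG00000028495.8, chr4:86500564-86503316, - strand, mm9), which encodes the protein phosphorylated by the S6 kinases downstream of mTORC1, had 376, 396 and 384 FPKM in Gdpd3+/+ and 554, 527 and 513 in Gdpd3-/-. Its groups did not overlap and it was not called (log2 fold change 0.46, SE 0.0893, adjusted p = 0.0589 by limma). Its change lay at the middle of the group, whose median was 0.46. With only genes of at least 10 FPKM tested, the adjusted p of Rps6 was 0.0266 by limma, and with TMM scaling its log2 fold change was 0.26 (adjusted p = 0.18).

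The P stalk genes had values like those of the other core genes, with 0 of 3 called. Rplp0 had 553, 603 and 569 FPKM in Gdpd3+/+ and 735, 837 and 705 in Gdpd3-/-, Rplp1 444, 512 and 508 against 762, 748 and 651, and Rplp2 95.0, 110.5 and 106 against 149, 157 and 138. The groups of all 3 were separate, with log2 fold changes of 0.40, 0.56 and 0.51 and adjusted p of 0.106, 0.0668 and 0.0619 by limma.

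A list of 10 RP genes was chosen for their ties to Diamond-Blackfan anaemia or the 5q- syndrome, and it need not hold all such members. Of these 10, 2 were called higher (Rpl5 and Rpl35a), 0 lower, and all 10 had Gdpd3-/- libraries above Gdpd3+/+ ones. Their median log2 fold change was 0.48. Among all 83 members tested 10 were called higher and 78 had all Gdpd3-/- libraries above. Over all genes tested the shares were 1.09% and 23.5%. Rps14, the gene of the 5q- syndrome, had 421, 448 and 456 FPKM in Gdpd3+/+ and 636, 673 and 594 in Gdpd3-/- (log2 fold change 0.52, SE 0.0986, adjusted p = 0.0577 by limma). Rps19, the gene first tied to Diamond-Blackfan anaemia, had 126, 144 and 143 against 215, 207 and 189. Rps24, Rps26, Rps7 and Rps10 had log2 fold changes of 0.49, 0.47, 0.42 and 0.42. The 4 members on the X chromosome, Rpl10, Rpl36a, Rps4x and Rpl39, had 0.28, 0.38, 0.47 and 0.49.

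Apart from Rpl4, described next, the core genes had similar changes. The SD of the log2 fold change over the 76 core genes was 0.09, against 0.78 over the 6641 other genes with a mean of at least 10 FPKM. Between pairs of libraries the SD of the log2 ratio over core genes was 0.0532 to 0.0688 within Gdpd3+/+, 0.102 to 0.111 within Gdpd3-/-, and 0.0815 to 0.143 across genotypes. Other genes with a mean of at least 25 FPKM had SDs of 0.458 to 0.544, 0.917 to 1.03 and 0.839 to 1.27 in the same pairs. The pairs share libraries, so these are descriptions. Gdpd3-/- libraries were thus more uneven among themselves than Gdpd3+/+ libraries for both sets. Within the core genes the change did not follow the level (r = -0.167 with log2 Gdpd3+/+ FPKM). Core genes with a pyrimidine run of at least 8 bases at a listed start had a median log2 fold change of 0.48 (22 genes) and those with a shorter run or none 0.42 (34 genes), with ranges of 0.02 to 0.69 and 0.28 to 0.57.

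Rpl4 had the smallest fold change of the core genes. It encodes a large-subunit protein that lines the exit tunnel, and at a Gdpd3+/+ mean of 674.9 FPKM it ranked 10th of the members. Rpl4 (ENSMUSG00000032399.7, chr9:64021194-64026369, + strand, mm9) had 678, 684 and 663 FPKM in Gdpd3+/+ and 643, 683 and 731 in Gdpd3-/-, so the groups overlapped (log2 fold change 0.02, SE 0.0992, adjusted p = 0.911 by limma). Its change was 4.56 SDs of the core genes below their median, and the next lowest, Rpl38, was 2.38 SDs below. As a part of the summed core FPKM, Rpl4 went from 3.06%, 2.83% and 2.77% in Gdpd3+/+ to 2.03%, 2.05% and 2.39% in Gdpd3-/-, with the groups apart. This gene was singled out for its small change, so these are descriptions. When every library was centred on the median RP gene, Rpl4 had a log2 fold change of -0.41 (SE 0.102) and did not pass (adjusted p = 0.0685 by limma over 24486 genes). In that fit 0 members were called in either direction, 5 had an unadjusted p under 0.05, and 0.641% and 4.26% of all genes were called higher and lower. The members with the lowest p there were Rpl4, Rpl36al (-0.37, adjusted p = 0.0786), Rpl3l (2.23, adjusted p = 0.118), Rpl7l1 (-0.42, adjusted p = 0.128) and Rpl34 (0.26, adjusted p = 0.189). Rpl38 had 274, 317 and 310.4 FPKM in Gdpd3+/+ and 315, 382 and 361 in Gdpd3-/-, overlapping by the lowest Gdpd3-/- library (log2 fold change 0.23, SE 0.115, adjusted p = 0.293 by limma).

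The paralogs differed among themselves. Several are tissue-restricted copies of a core gene that can replace it in the ribosome, such as Rpl3l in heart and skeletal muscle and Rpl10l and Rpl39l in the male germ line. Of the 8, 7 passed the filter, 0 were called, and the median log2 fold change was 0.36. Their coding sequences in GENCODE M21 were identical to those of their parents at 87.7% of aligned positions for Rpl36al, 84.97% for Rpl39l, 84.7% for Rpl10l, 73.2% for Rpl3l, 68.2% for Rpl22l1, 61.0% for Rps27l and 54.0% for Rpl7l1. Levels of the closest copies are less certain, since the recovered fragments came in hundredths, as when a fragment that maps to several places is split among them.

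Rpl3l (ENSMUSG00000002500.8, chr17:24864774-24873094, + strand, mm9) had 2.82, 2.75 and 1.94 FPKM in Gdpd3+/+ and 27.4, 33.5 and 4.56 in Gdpd3-/- (log2 fold change 2.66, SE 0.725, adjusted p = 0.104 by limma). The groups did not overlap, but replicates 5 and 6 were far above replicate 7. The same 2 libraries held the skeletal muscle transcripts: all 22 markers had every Gdpd3-/- library above every Gdpd3+/+ library, their summed share was 1.91% and 2.72% in replicates 5 and 6 against 0.358% in replicate 7, and Acta1 stood at 344, 238 and 232 FPKM in Gdpd3+/+ and 2969, 4536 and 555 in Gdpd3-/-. Without replicates 5 and 6, which leaves 1 Gdpd3-/- library and so no check on its spread, the log2 fold change of Rpl3l was 0.86, and without replicate 7 it was 3.56 (adjusted p = 0.00421 by limma). The part of muscle transcripts in the Rpl3l value was not tested beyond this.

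Rpl7l1, whose product takes part in assembly of the large subunit, had 49.1, 51.8 and 49.1 FPKM in Gdpd3+/+ and 41.4, 52.6 and 58.6 in Gdpd3-/- (log2 fold change 0.01). Rpl36al had 126, 128 and 132 against 121, 141 and 143 (log2 fold change 0.06). In both, the groups overlapped, and with TMM scaling the values were -0.19 for Rpl7l1, -0.14 for Rpl36al and -0.18 for Rpl4. Rpl22l1, the paralog of the T cell regulator Rpl22, had 162, 158 and 160.2 FPKM in Gdpd3+/+ and 224, 209 and 266 in Gdpd3-/- (log2 fold change 0.53, SE 0.112, adjusted p = 0.0694 by limma), without overlap. Rps27l, a p53 target, had 189.9, 181 and 200.4 against 209, 281 and 259.7 (log2 fold change 0.38, SE 0.13, adjusted p = 0.157 by limma), and Rps4y2 12.9, 15.8 and 12.5 against 20.4, 16.7 and 16.0 (log2 fold change 0.36, SE 0.153, adjusted p = 0.228 by limma). Rps27l kept its groups apart, and Rps4y2 did so by less than 1 FPKM. Rpl39l was at 0.193, 0 and 0.471 FPKM in Gdpd3+/+ and 0, 0 and 1.01 in Gdpd3-/-, which came from 8 and 24 fragments in Gdpd3+/+ replicates 1 and 3 and 21 in Gdpd3-/- replicate 7. Rpl10l was listed at 0 in all 6 libraries.

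Set against its parent, 3 of the 7 measured pairs differed between the genotypes without overlap. The log2 ratio of Rpl7l1 to Rpl7 was -1.89, -1.83 and -1.92 in Gdpd3+/+ and -2.64, -2.29 and -2.13 in Gdpd3-/-, a difference of -0.47. That of Rpl36al to Rpl36a was 0.42, 0.32 and 0.29 against -0.08, -0.08 and 0.23, a difference of -0.32. Rpl3l to Rpl3 had -8.03, -8.11 and -8.56 against -5.25, -4.96 and -7.78, a difference of 2.24 with replicate 7 close to Gdpd3+/+. The exact permutation test gave p = 0.1 for each of the 3, the smallest possible, and 0.233 after Benjamini-Hochberg adjustment over the 7 pairs. Rpl22l1 stood furthest above its parent, at 379.5% of the Rpl22 level in Gdpd3+/+ and 414.7% in Gdpd3-/- by mean FPKM. Its log2 ratio of 1.98, 1.88 and 1.91 against 1.93, 1.89 and 2.31 overlapped (difference 0.12; exact permutation test, p = 0.6). Rps4y2, Rps27l and Rpl39l also overlapped, with differences of -0.10, -0.16 and -0.69 (exact permutation test, p = 0.6, 0.4 and 0.8).

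**Figure D5:**
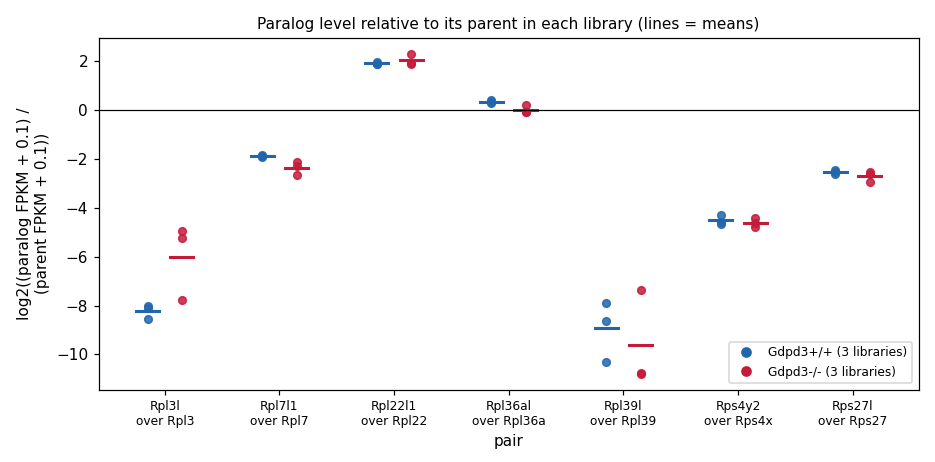
Log2 ratio of paralog to parent FPKM (0.1 added to both) in each library for 7 pairs, 1 point a library and a line at the group mean, with Gdpd3+/+ in blue and Gdpd3-/- in red. Rpl7l1 and Rpl36al lie lower in Gdpd3-/-, Rpl3l lies higher with 1 library near the Gdpd3+/+ points, and the other 4 pairs overlap.

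RP genes have many processed copies in the genome. The table lists 163 rows named as RP pseudogenes, 55 of them typed as protein-coding, and their summed FPKM was 9.17% ± 0.296 of that of the members in Gdpd3+/+ and 9.06% ± 0.404 in Gdpd3-/- (SD, n = 3 each; exact permutation test, p = 0.8). The sum itself was 2198 ± 149 FPKM in Gdpd3+/+ and 2951 ± 207 in Gdpd3-/-, a ratio of 1.34 beside 1.36 for the members. The copies of Rpl36a, Rpl15 and Rpl19 were the highest by name. The 1 copy of Rpl34 went from 80.9 FPKM in Gdpd3+/+ to 21.7 in Gdpd3-/-, against the direction of the sum. Exons of 26 members share bases with another listed gene, in many cases a snoRNA in an intron that an annotated transcript retains, and 14 overlap a gene of the other strand. The row named Rpl24 (chr16:55966388-56009026, + strand, mm9) joins Rpl24 with its neighbour Zbtb11, a zinc finger gene to which its identifier, ENSMUSG00000022601, now belongs, so its 40.7, 42.0 and 43.5 FPKM in Gdpd3+/+ and 47.7, 63.0 and 53.8 in Gdpd3-/- (log2 fold change 0.37, SE 0.122, adjusted p = 0.146 by limma) are not those of Rpl24 alone. It is counted among the core genes.

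Fau and Gnb2l1 are ribosomal protein genes that carry other names and are not members. Fau, whose product releases RPS30, had 273, 302 and 295 FPKM in Gdpd3+/+ and 392, 423 and 359 in Gdpd3-/-. Gnb2l1 (Rack1), the scaffold bound to the small subunit, had 93.6, 101 and 94.9 against 116, 133 and 123. Neither was called by limma, though both had an unadjusted p under 0.05, their groups did not overlap, and their log2 fold changes were 0.43 and 0.37.

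Other messages known to carry a TOP tract had a lower median than the RP genes. Of 21 translation factors and related TOP genes, 1 was called higher (Eef1b2), 0 lower, and 14 had all Gdpd3-/- libraries above. Their median log2 fold change was 0.25, next to 0.24 for all genes and 0.45 for the RP genes. Over all genes tested 1.09% were called higher and 23.5% had all Gdpd3-/- libraries above. The second share was 48.3% for genes outside the members with a mean of at least 100 FPKM. Eef1b2, an exchange factor of elongation factor eEF1A, had 86.4, 84.8 and 86.1 FPKM in Gdpd3+/+ and 121, 127 and 121 in Gdpd3-/- (log2 fold change 0.52, SE 0.079, adjusted p = 0.0394 by limma). Tpt1 was close to it (log2 fold change 0.54, SE 0.104, adjusted p = 0.059 by limma), while Eef1a1 had 1155, 1169 and 1141 against 1341, 1301 and 1378 (log2 fold change 0.21, SE 0.103, adjusted p = 0.272 by limma). Eif3l and Nap1l1 overlapped between the genotypes with log2 fold changes of -0.01 and -0.15.

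Genes of the machinery that builds ribosomes had a median near 0. Of 55 ribosome biogenesis genes, 0 were called in either direction by limma, where 1.09% and 0.616% of all genes were called higher and lower. At an unadjusted p under 0.05, 6 were higher and 3 lower, and 16.5% of all genes were higher at that level. In 11 all Gdpd3-/- libraries lay above and in 6, among them Taf1b and Wdr43, all lay below. Over all genes tested these shares were 23.5% and 8.27%. The median log2 fold change of the 55 was 0.03, below that of all genes. Fbl, the methyltransferase of box C/D snoRNPs, had 59.4, 71.6 and 67.5 FPKM in Gdpd3+/+ and 77.1, 79.0 and 102 in Gdpd3-/-, and Npm1 253, 244 and 231 against 262, 297 and 289.7, both without overlap. Ncl, or nucleolin, had 95.2, 96.2 and 87.6 against 73.5, 82.7 and 94.4, and Nop56 62.5, 68.6 and 59.9 against 51.9, 57.7 and 75.3, both overlapping. The 21 known regulators of RP mRNAs and mTORC1 signalling gave the same count, 0 called in either direction, and a median of 0.02. At an unadjusted p under 0.05, 4 of the 21 were higher and 1 lower. In 7 of them all Gdpd3-/- libraries lay above, and in 2 all lay below. Larp1 had 19.7, 22.5 and 20.6 FPKM in Gdpd3+/+ and 21.8, 17.0 and 25.5 in Gdpd3-/-, and Myc 69.5, 86.6 and 71.1 against 74.1, 85.7 and 112, both overlapping. Eif4ebp1, the mTORC1 target that represses cap-dependent translation, had 87.5, 96.0 and 89.9 against 153, 201 and 117 (log2 fold change 0.75, SE 0.194, adjusted p = 0.0951 by limma), without overlap. Under TMM scaling the medians of the biogenesis and regulator lists were -0.18 and -0.19, that of the translation factors 0.04, and that of the RP genes 0.24.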

How the data were processed

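RNA-Seq of 6 LT-CML stem cell libraries was analysed by labelled genotype. The members and gene lists were chosen with earlier results of these data known. Per the submitters' processing notes, the authors trimmed paired-end reads of 150 bases (Trimmomatic, Trim Galore, cutadapt 1.16), mapped them to mm9 with STAR 2.6.1a and counted with featureCounts 1.6.1. The authors deposited FPKM values for 36976 genes, the length of each gene, and DESeq2 output (base mean signal, fold changes, p-values), of which only the base mean was read, as a check. FPKM times length sums to 1000000000 in each library, and at the inferred depth values are steps of 0.01 fragment. The rounded fragments gave the base mean of 29209 genes within 1% for 100.0% of them. Intervals that depth could give cover counting error only. Gene positions are those of the deposited table (mm9).

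Genotype was tested on log2(FPKM + 0.1) with limma 3.58.1 (R 4.3.3, trend on intensity) for 24689 genes whose mean FPKM reached 0.05, and p-values were adjusted by Benjamini-Hochberg over all of them. Fold changes are on that log2 scale. Exact permutation tests of single values were two-sided (SciPy 1.17.1; 20 assignments). On simulated data with the spread of both groups, 75 of 200 genes changed by 2 on the log2 scale were recovered among 24689, with 5 false calls. The largest change of a core gene was 0.69, so this recovery does not describe changes of the size seen in them. Members named are the called ones (the 10 with the smallest p if more), the 5 with the highest mean FPKM, the 5 largest and 5 smallest changes with a mean FPKM of at least 1, every paralog, Rps6 and the anaemia and 5q list, and others were named after their values were seen. Some genes that this rule names are not reported here. Alternatives were pseudocounts of 0.01 and 1, other filters, TMM (30% of M and 5% of A values trimmed) and other scalings, no trend, array weights and each library left out.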

Additional observations from a re-analysis of the deposited data

How the results depend on the processing

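No paired analysis was possible because the groups share no replicate number. The count of RP genes called higher was 10 as reported, where 1.09% of all genes were called higher. With the share of all genes in brackets, it was 2 with a pseudocount of 1 (0.502%) and 6 without a filter (0.49%). It was 36 at a minimum mean FPKM of 1 (3.12%) and 67 at a minimum of 10 (14.0%). Scaling gave 0 with TMM (0.48%), 1 with quantile normalization (0.482%) and 79 with equal sums of FPKM (14.6%, with the median of all genes at 0.50). The count was 0 without the intensity trend (0.32%) and 0 with array weights (0.502%). Alternatives chosen after seeing the data gave 0 with median-of-ratios scaling (0.476%), 5 with voom on recovered fragments (1.17%) and 0 when libraries were centred on RP genes (0.641%). Also chosen after seeing the data, a fit without Gdpd3-/- replicates 5 and 6 had an RP median of 0.41. In it the 1 Gdpd3-/- library left is assumed to vary like Gdpd3+/+. Leaving out each library in turn gave counts of 0 to 59, the highest without Gdpd3-/- replicate 7 (9.83%). The counts of 0 came from fits in which 0% to 0.354% of all genes were called higher. The count called lower was 0 throughout. The median log2 fold change of RP genes, 0.45, was 0.24 with TMM, 0.27 with quantile normalization, 0.72 with equal sums of FPKM, 0.26 with median-of-ratios scaling, 0.26 with voom and 0.0109 centred on RP genes, and 0.40 to 0.47 when each library was left out. Why the count changed with the setting was not tested.

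The genotype difference of the pseudogene percentage, -0.107 points, was 0.0632 without Gdpd3+/+ replicate 2 and 0.0898 without Gdpd3-/- replicate 7, within a range of -0.314 to 0.0898. That of the large to small subunit ratio, -0.00607, turned to 0.0737 as a difference of median log2 values. The log2 ratio of Rpl22l1 to Rpl22 turned from 0.12 to -0.0126 without Gdpd3-/- replicate 7 (range -0.0126 to 0.198), and that of Rps4y2 to Rps4x from -0.10 to 0.0107 without Gdpd3+/+ replicate 2 (range -0.194 to 0.0107). Core genes had 2821 to 82244 fragments in a library, and Rpl39l and Rpl10l 0 to 24, so differences of those 2 paralogs were not detectable at this depth. The effect of the unequal depth of the genotypes was not tested.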
